A study of Homo sapiens with 9 samples.

Results

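The cell cycle cyclins are the regulatory subunits whose levels time the division of a cell. These results describe 10 of them, CCND1, CCND2, CCND3, CCNE1, CCNE2, CCNA1, CCNA2, CCNB1, CCNB2 and CCNF, chosen by gene name from the 58735 genes of a count table. The table comes from HEYA8, an established line of human ovarian cancer cells, wild type and of the high-grade serous kind by its labels, grown in DMEM with serum. The cells were kept for 24 h with sunitinib, a drug that blocks receptor tyrosine kinases, with compound 32, or with the solvent DMSO, and each treatment had 3 libraries. The sources used here give no doses and no structure of compound 32. The labels tell no batches apart among the libraries. HEYA8 is 1 cell line, so the values describe that line alone.

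A cyclin binds a cyclin-dependent kinase (CDK) and switches it on. Cyclins D, which answer to growth signals, work with CDK4 and CDK6 in G1 and start the release of E2F transcription factors from RB. Cyclins E and CDK2 then carry the cell into S phase, cyclin A acts in S phase and G2, and cyclins B with CDK1 drive mitosis. Cyclin F is the exception, since it activates no CDK and instead picks proteins for destruction as part of an SCF ubiquitin ligase. Transcripts of cyclins E peak near the entry to S phase and those of cyclins A2, B and F in G2 and mitosis, so in a bulk culture a change in the share of cells in a phase and a change in RNA per cell cannot be told apart.

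The totals of the 9 libraries ran from 15498101 to 18006171 counts. Markers of the tumour type were mixed. PAX8 stood at 114.2 to 136.5 CPM (normalised counts, scaled to library size) and KRT8, KRT18 and VIM were abundant, whereas MUC16 and CDH1 had 7 and 3 counts in all 9 libraries together. Of 12 markers of blood, vessel and stromal cells, CDH5 and PECAM1 averaged at least 1 CPM in each group, and VWF with sunitinib alone. The summed level of the 12 markers was 15.2 to 17.8 CPM with sunitinib, 5.98 to 6.66 CPM with compound 32 and 8.04 to 11.2 CPM with DMSO. CDH5 made up most of it. HBB was at 0 and PTPRC and DCN had 1 count each. Sunitinib replicate 3 stood apart from its group, with ribosomal protein genes at 6.96% of its counts and mitochondrial genes at 5.36%, against 3.71 to 4.52% and 3.42 to 3.92% in the other 8 libraries. Its part in the results was not tested, beyond the values without it that are given below.

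The cyclins moved in different patterns under the 2 compounds. With sunitinib, 7 of the 9 cyclins that could be tested fell against DMSO, from cyclin D to cyclin F, and CCNA1 alone rose. With compound 32 the set split along the cycle: CCND3, CCNE1 and CCNE2 rose, CCNA1, CCNA2, CCNB1, CCNB2 and CCNF fell, and CCND1 did not pass the test. A gene was called at an adjusted p under 0.05 in edgeR's quasi-likelihood test, adjusted over all 15232 genes tested. Over all those genes 40.2% were called with sunitinib, 20.3% higher and 19.9% lower, and 22.3% with compound 32, 12.0% higher and 10.3% lower. The libraries of a compound and of DMSO did not overlap for 8 of the 9 cyclins in either comparison. Among all genes 50.8% did not overlap for sunitinib, 25.8% higher and 25.1% lower, and 49.1% for compound 32, 24.7% higher and 24.4% lower. Without sunitinib replicate 3, 8 cyclins fell with sunitinib, CCNB2 among them, and 4 rose with compound 32, CCND1 among them. More of all genes were also called in that fit, which tested 15580. With sunitinib 3908 were higher and 4096 lower, against 3090 and 3036 of 15232 in the main fit. With compound 32 these were 3359 and 3189, against 1830 and 1571. The 2 comparisons share the DMSO libraries. The lowest count of a tested cyclin in any library was 26.

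**Figure D1:**
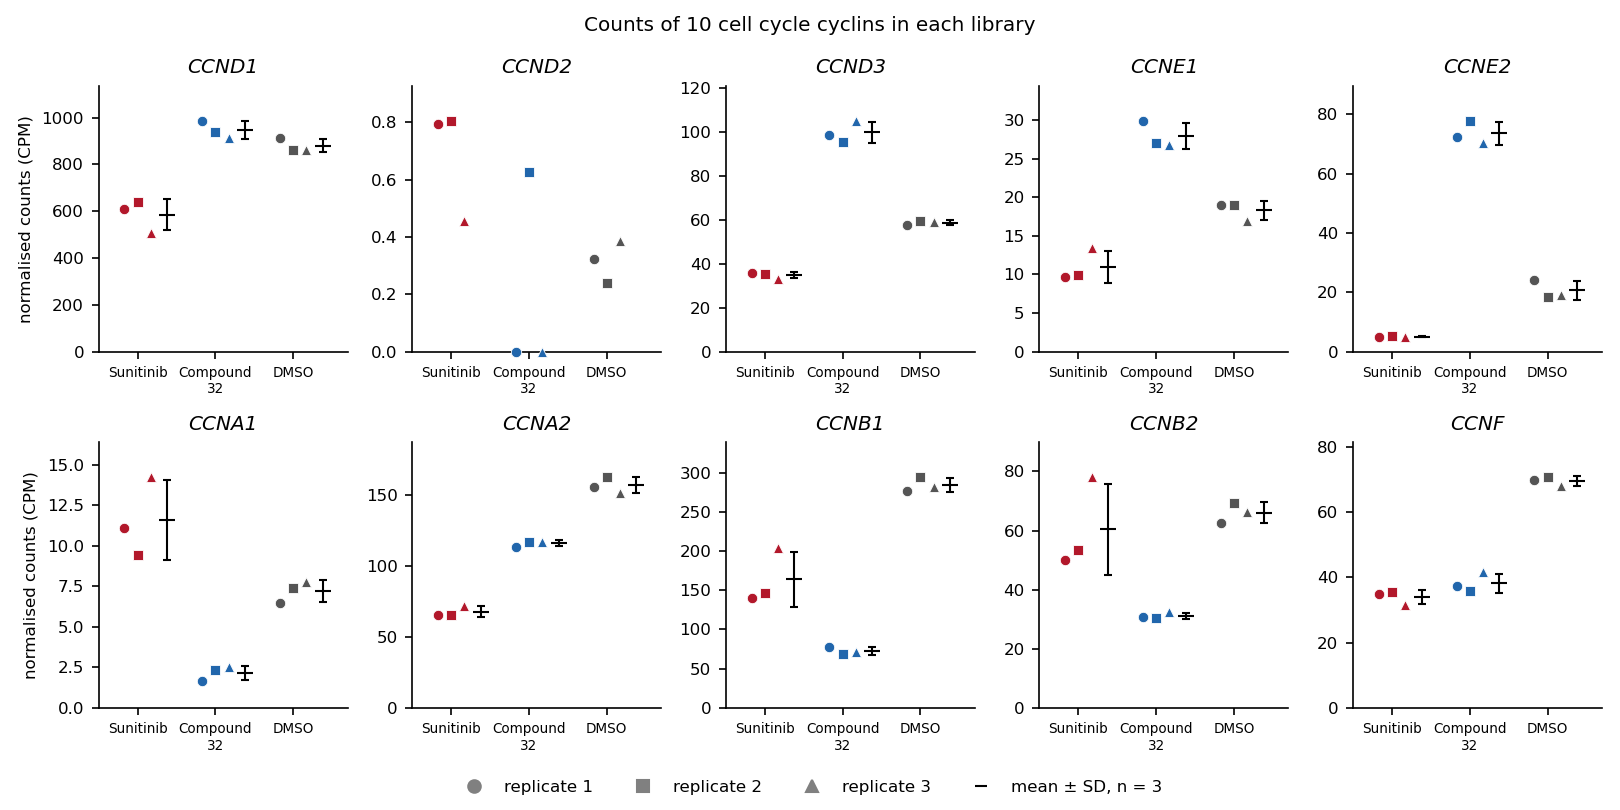
Normalised counts (CPM, linear axes from 0) of the 10 cyclins in each library, with replicates as circle, square and triangle and the mean ± SD of 3 libraries beside them, except for CCND2. CCNE2 sits near 5 CPM with sunitinib, above 70 CPM with compound 32 and near 20 CPM with DMSO, while CCNB1 is lowest with compound 32.

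**Figure D2:**
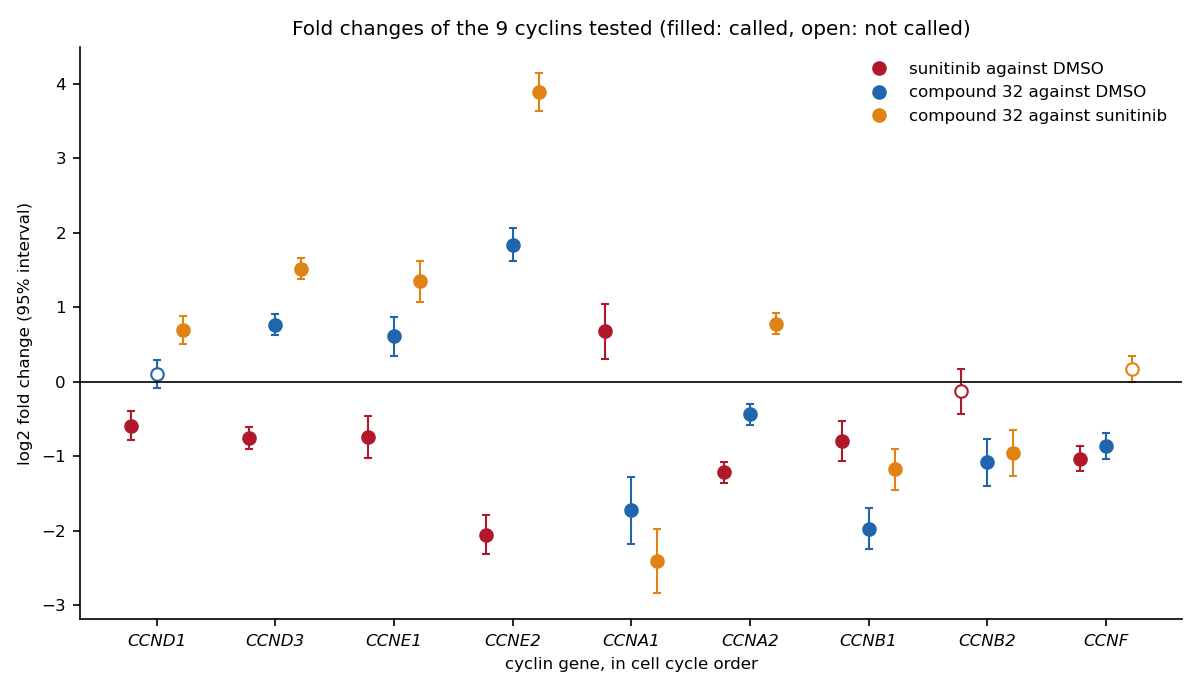
Log2 fold changes of the 9 tested cyclins, in cell cycle order, with 95% intervals. Each compound is set against DMSO, and compound 32 also against sunitinib. Filled points were called by edgeR and open points were not. The open points are CCNB2 with sunitinib, CCND1 with compound 32 and CCNF between the compounds.

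CCND1, the main D cyclin of these cells and the one most often amplified in cancers, had 611, 638 and 509 CPM in the 3 sunitinib libraries and 987, 939 and 912 CPM in the compound 32 libraries, against 915, 864 and 863 CPM with DMSO. All sunitinib libraries lay below all DMSO libraries, whereas the compound 32 and DMSO ranges overlapped. CCND1 fell by 0.59 ± 0.09 on the log2 scale with sunitinib (SE, n = 3 per group; edgeR adjusted p = 0.000285). With compound 32 the log2 fold change was 0.10 ± 0.09 (edgeR adjusted p = 0.442), with a 95% interval of -0.09 to 0.29. That call depended on the libraries fitted together: with the 6 compared libraries alone the same fold change had an edgeR adjusted p of 0.0105, and without sunitinib replicate 3 it was 0.11 with an adjusted p of 0.00726. CCND1 lies on chromosome 11 at 69641087 to 69654474 (GRCh38, plus strand), and 10.3% of its exonic bases overlap exons of LTO1 on the other strand, which rose slightly with sunitinib (0.25 ± 0.09, edgeR adjusted p = 0.0372).

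CCND3, the D cyclin best known from lymphoid cells, separated the treatments without overlap. It had 35.7, 35.5 and 33.3 CPM with sunitinib, 98.7, 95.7 and 105.3 CPM with compound 32 and 57.5, 59.7 and 59.0 CPM with DMSO. Sunitinib libraries were all lower and compound 32 libraries all higher than those of DMSO. The log2 fold changes were of like size and opposite sign, -0.75 ± 0.07 with sunitinib (edgeR adjusted p = 6.9e-06) and 0.77 ± 0.07 with compound 32 (edgeR adjusted p = 1.19e-05). CCND3 lies on chromosome 6 at 41934933 to 42050357 on the minus strand.

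CCND2, the third D cyclin (chromosome 12, 4273772 to 4305350, plus strand), was barely detected. It had 15, 13 and 7 counts with sunitinib, 0, 10 and 0 counts with compound 32 and 5, 4 and 6 counts with DMSO. It failed the filter on low counts and is the 1 of 10 cyclins without a test. A count of 0 allows up to 3 counts in a library, by counting error alone, and the compound 32 libraries alone spanned 0 to 0.626 CPM.

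Both E cyclins fell with sunitinib and rose with compound 32. CCNE1, the E cyclin amplified in a part of ovarian cancers, had 9.69, 9.92 and 13.4 CPM with sunitinib, 29.9, 27.1 and 26.8 CPM with compound 32 and 19.0, 19.0 and 16.9 CPM with DMSO. No library of one treatment reached the range of another. CCNE1 fell by 0.74 ± 0.13 with sunitinib (log2; edgeR adjusted p = 0.000801) and rose with compound 32 by 0.61 ± 0.12 (edgeR adjusted p = 0.00403). Sunitinib replicate 3 was the highest of its group, and without it the sunitinib value was -0.90. The gene spans 29811898 to 29824308 on the plus strand of chromosome 19.

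CCNE2, the second E cyclin and a known E2F target, had 4.98, 5.08 and 4.81 CPM with sunitinib, 72.4, 77.8 and 70.4 CPM with compound 32 and 24.2, 18.5 and 19.1 CPM with DMSO. The groups stood far apart relative to their spread, and sunitinib replicate 3 lay beside its replicates here. CCNE2 was 4.14-fold lower with sunitinib (log2 fold change -2.05 ± 0.12, edgeR adjusted p = 3.6e-07) and 3.57-fold higher with compound 32 (1.84 ± 0.10, edgeR adjusted p = 4.25e-07). Only 21 of the 15232 genes had a lower fold change with sunitinib, and 59 had a higher one with compound 32.

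CCNE2 lies on the minus strand of chromosome 8 at 94879770 to 94896678, and 37.0% of its exonic bases overlap exons of INTS8, a subunit of the Integrator complex on the other strand. The sources used here do not state a strand setting for the counting, so reads in the shared bases may belong to either gene. INTS8 averaged 88.3 ± 7.19 CPM with sunitinib, 119.3 ± 3.99 CPM with compound 32 and 127.3 ± 8.09 CPM with DMSO (SD, n = 3 each). It fell by 0.53 ± 0.08 with sunitinib (edgeR adjusted p = 0.000242) and had -0.09 ± 0.08 with compound 32 (edgeR adjusted p = 0.423). With compound 32 CCNE2 rose and INTS8 was not called, and with sunitinib both fell. The part of the CCNE2 counts that came from the shared bases was not tested.

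Among the A cyclins, CCNA1 and CCNA2 went opposite ways with sunitinib. CCNA1, the A cyclin of the male germ line, was low throughout, at 11.1, 9.42 and 14.2 CPM with sunitinib, 1.68, 2.32 and 2.51 CPM with compound 32 and 6.49, 7.37 and 7.78 CPM with DMSO. Every sunitinib library lay above every DMSO library and every compound 32 library below. CCNA1 rose with sunitinib by 0.68 ± 0.17 (log2; edgeR adjusted p = 0.00789) and fell by 1.73 ± 0.20 with compound 32 (edgeR adjusted p = 0.000154). It lies on chromosome 13 at 36431520 to 36442882, plus strand.

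CCNA2, the A cyclin of somatic cells, had 65.4, 65.2 and 71.8 CPM with sunitinib, 113.3, 117.0 and 116.8 CPM with compound 32 and 155.6, 162.4 and 151.4 CPM with DMSO. Both compounds placed all their libraries below those of DMSO, sunitinib the lower. CCNA2 was 2.32-fold lower with sunitinib (log2 fold change -1.21 ± 0.06, edgeR adjusted p = 1.6e-07) and fell by 0.44 ± 0.06 with compound 32 (edgeR adjusted p = 0.000595). The gene occupies 121816444 to 121823933 on the minus strand of chromosome 4. EXOSC9, whose exons on the other strand cover 9.08% of its exonic bases, had -0.70 ± 0.11 with sunitinib (edgeR adjusted p = 0.000393) and 0.11 with compound 32 (edgeR adjusted p = 0.521).

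Both mitotic cyclins B fell with compound 32, and CCNB1 had the lowest fold change of the 9 tested cyclins in that comparison. CCNB1, which activates CDK1 at mitotic entry, had 140.4, 147.1 and 203.9 CPM with sunitinib, 78.1, 68.5 and 70.6 CPM with compound 32 and 276.9, 294.6 and 281.7 CPM with DMSO. Both treatments lay below DMSO in every library, with compound 32 lowest. CCNB1 was 3.93-fold lower with compound 32 (log2 fold change -1.97 ± 0.13, edgeR adjusted p = 1.29e-06), a fall exceeded by 30 genes. It fell by 0.80 ± 0.12 with sunitinib (edgeR adjusted p = 0.000339), and the value was -0.99 without sunitinib replicate 3, the highest library of its group. CCNB1 lies on chromosome 5 at 69167010 to 69178245, plus strand.

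CCNB2, the B cyclin found at the Golgi, had 49.9, 53.3 and 78.2 CPM with sunitinib, 30.7, 30.5 and 32.3 CPM with compound 32 and 62.4, 69.4 and 66.3 CPM with DMSO. Compound 32 libraries were all lower than those of DMSO, and CCNB2 fell by 1.08 ± 0.14 (log2; edgeR adjusted p = 0.000318). With sunitinib the groups overlapped: replicates 1 and 2 were below every DMSO library and replicate 3 was above them all. The log2 fold change was -0.13 ± 0.14 (edgeR adjusted p = 0.481), with a 95% interval of -0.43 to 0.17. Without sunitinib replicate 3 it was -0.36 with an edgeR adjusted p of 3.58e-06, so 1 library decided this call. CCNB2 occupies 59105078 to 59125045 on the plus strand of chromosome 15.

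CCNF had 34.8, 35.5 and 31.5 CPM with sunitinib, 37.2, 35.9 and 41.5 CPM with compound 32 and 69.7, 70.7 and 67.9 CPM with DMSO. Both compounds left the cyclin F transcript near a common level, well below every DMSO library. It was 2.05-fold lower with sunitinib (log2 fold change -1.03 ± 0.08, edgeR adjusted p = 1.94e-06) and fell by 0.86 ± 0.08 with compound 32 (edgeR adjusted p = 1.83e-05). CCNF lies on chromosome 16 at 2429394 to 2458854, plus strand, and the genes whose exons overlap it on the other strand had 13 and 28 counts in all libraries together.

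The promoters of 4 of these late cyclins are shown. All 4 fell with both compounds or with compound 32 alone, and their start regions carry letters that cell cycle promoters are known for. A match was thus a condition of the choice, and its presence in these 4 is not a result. CCNA1 also fell with compound 32, but its window held no match and is not shown. The cell cycle homology region (CHR), read by the MuvB complex with B-MYB and FOXM1, was searched as TTTGAA or TTCGAA, the CCAAT box of NF-Y as CCAAT, and the E2F core as TTCCCGC or TTCGCGC or TTGGCGC or TTGCCGC, on both strands, with no overlap between matches of different motifs in the stretches shown. Sequences are from RefSeq (GRCh38.p14), the 250 bases before the annotated start, 5′ to 3′ on the gene's strand, and capitals mark matches. The stretches are chr4:121823884-121824133 on the minus strand for CCNA2, chr5:69166900-69167149 on the plus strand for CCNB1, chr15:59104896-59105145 on the plus strand for CCNB2 and chr16:2429197-2429446 on the plus strand for CCNF.
CCNA2: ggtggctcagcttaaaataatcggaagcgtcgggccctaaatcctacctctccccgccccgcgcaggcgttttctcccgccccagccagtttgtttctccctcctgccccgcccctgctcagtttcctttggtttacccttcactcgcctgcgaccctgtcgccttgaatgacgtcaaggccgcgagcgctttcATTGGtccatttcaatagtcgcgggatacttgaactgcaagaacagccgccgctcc
CCNB1: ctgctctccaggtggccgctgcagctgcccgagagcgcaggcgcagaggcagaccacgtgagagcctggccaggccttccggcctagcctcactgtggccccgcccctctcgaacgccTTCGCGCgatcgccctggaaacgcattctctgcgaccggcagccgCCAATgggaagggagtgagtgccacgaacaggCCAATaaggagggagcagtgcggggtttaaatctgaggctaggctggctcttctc
CCNB2: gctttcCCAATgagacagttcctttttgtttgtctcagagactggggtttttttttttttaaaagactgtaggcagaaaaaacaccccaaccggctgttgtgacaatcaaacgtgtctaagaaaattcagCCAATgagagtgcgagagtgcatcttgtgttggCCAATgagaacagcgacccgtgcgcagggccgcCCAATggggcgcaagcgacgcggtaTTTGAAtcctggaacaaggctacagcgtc
CCNF: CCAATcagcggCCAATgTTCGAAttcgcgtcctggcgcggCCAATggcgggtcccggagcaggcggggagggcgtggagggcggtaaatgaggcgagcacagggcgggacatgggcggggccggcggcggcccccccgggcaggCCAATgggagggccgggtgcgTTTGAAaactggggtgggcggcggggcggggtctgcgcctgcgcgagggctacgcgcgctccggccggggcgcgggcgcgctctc

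CCNB2 held 4 CCAAT boxes and a CHR that began 29 bases before the start. CCNF held 4 CCAAT boxes and CHR letters that began 233 and 85 bases before it. CCNB1 had 2 CCAAT boxes, 87 and 55 bases before its start, and an E2F core at 132, and CCNA2 had a single CCAAT box on the other strand. RefSeq windows of 300 bases, with 50 of them after the start, were at hand for 7 of the 10 cyclins. CCND1, CCND2 and CCNE2 had none. In them the NF-Y box was present for 5 cyclins and the searched CHR letters for 2. The E2F core was present for 1 and the activator protein 1 letters TGACTCA for 0. Other spellings of the CHR were not searched, so CCNA2 and CCNB1 are not shown to lack one. Across all 35116 promoter windows of that length, 34.6% held the NF-Y box, 16.4% the CHR letters, 13.0% the E2F core and 4.95% the activator protein 1 letters. CCNE1 and CCNA1 had no match in their windows.

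Set directly against sunitinib, compound 32 gave higher CCND1, CCND3, CCNE1, CCNE2 and CCNA2 and lower CCNA1, CCNB1 and CCNB2. Over all genes 49.2% were called in this comparison, 24.1% higher and 25.2% lower, and 56.9% did not overlap between groups. None of the 9 tested cyclins overlapped between the compounds. CCNE2 stood 14.8-fold higher with compound 32 (log2 fold change 3.89 ± 0.12, edgeR adjusted p = 8.78e-10), with a 95% interval of 3.63 to 4.15, and only 9 genes had a higher value. INTS8 differed by 0.43 ± 0.08 in the same direction. CCND3 differed by 1.52 ± 0.07 (edgeR adjusted p = 1.79e-08) and CCNE1 by 1.35 ± 0.13 (edgeR adjusted p = 5.31e-06).

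CCNA2 and CCND1 were also higher with compound 32 than with sunitinib, by 0.78 ± 0.06 and 0.69 ± 0.09 on the log2 scale (edgeR adjusted p = 2.17e-06 and 5.63e-05). In the other direction CCNA1 was 5.30-fold lower with compound 32 (edgeR adjusted p = 2.08e-06), CCNB1 had -1.18 ± 0.12 (edgeR adjusted p = 1.42e-05) and CCNB2 -0.95 ± 0.14 (edgeR adjusted p = 0.00021). CCNF was the cyclin for which the compounds were not told apart: its difference was 0.17 ± 0.08 (edgeR adjusted p = 0.0923), with a 95% interval of -0.0014 to 0.34, although the libraries did not overlap.

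Per length of exon, CCND1 was the most abundant cyclin transcript in every treatment, at 121.3 ± 14.1 CPM per kb with sunitinib, 195.9 ± 7.85 CPM per kb with compound 32 and 182.3 ± 6.13 CPM per kb with DMSO (SD, n = 3 each). In DMSO the order was CCND1, CCNB1, CCNA2, CCNB2, CCNF, CCND3, CCNE1, CCNE2, CCNA1 and CCND2, from 111.2 ± 3.58 CPM per kb for CCNB1 to 0.044 for CCND2, and no neighbours in that order overlapped. CCNB1 kept the rank below CCND1 with sunitinib (64.0 ± 13.6 CPM per kb), where CCNA2 and CCNB2 overlapped, as did CCNF with CCNA1 and CCNA1 with CCNE1. With compound 32 CCNA2 (41.3 CPM per kb) stood above CCNB1 (28.3), and CCNE2 reached 16.7 CPM per kb, which overlapped CCND3 at 17.2. CCNB2 and CCNE1 also overlapped there, at 11.1 and 10.96 CPM per kb. The level and rank of CCNE2 rest on its full exon length, of which 37.0% is shared with INTS8. They depend on how reads in those bases were counted, which is not known.

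**Figure D3:**
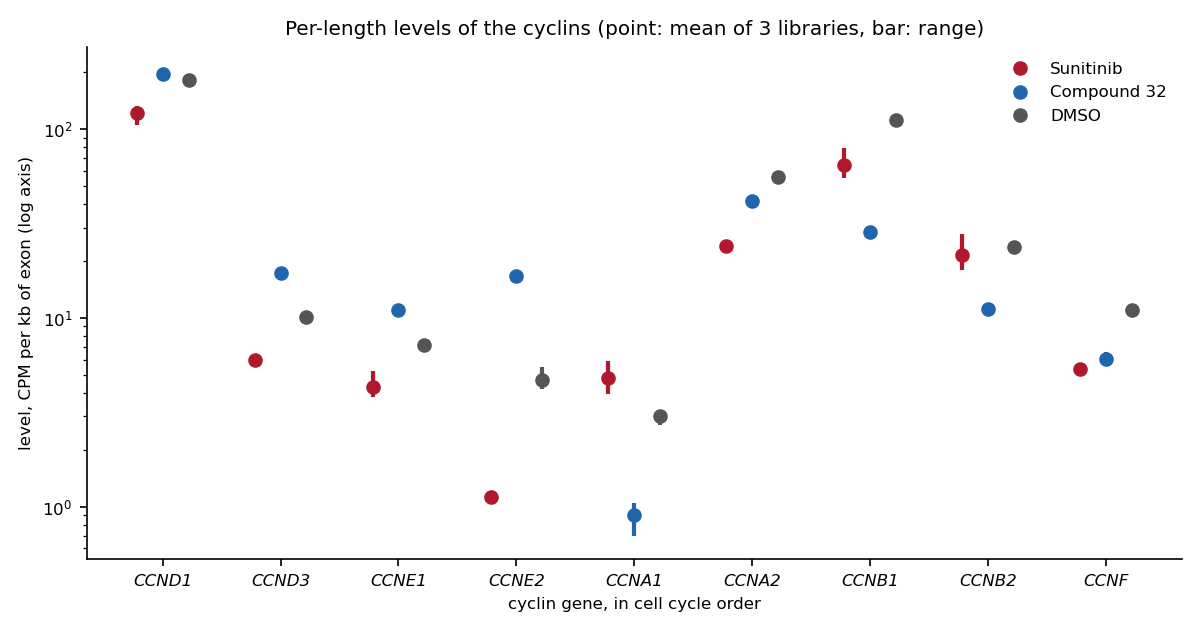
Level of each cyclin per kb of exon (CPM per kb, log axis) by treatment, with the mean of 3 libraries as a point and the range as a bar, CCND2 left out. CCNE2 has the widest gap, with 16.7 CPM per kb under compound 32 and 1.13 CPM per kb under sunitinib, and CCND1 is the highest in all 3 treatments.

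Added up per length, the cyclins E were 5.44 ± 0.79 CPM per kb with sunitinib, 27.7 ± 1.00 CPM per kb with compound 32 and 11.9 ± 1.00 CPM per kb with DMSO. The cyclins B came to 85.6 ± 19.1 CPM per kb with sunitinib, 39.4 ± 1.93 with compound 32 and 134.8 ± 4.79 with DMSO. The ratio of cyclin B to cyclin E transcript was therefore 14.7, 15.2 and 16.96 in the sunitinib libraries, 1.47, 1.33 and 1.48 in the compound 32 libraries and 10.1, 12.0 and 12.2 in the DMSO libraries. It was high in all sunitinib and DMSO libraries, with the sunitinib ones above, and low in every compound 32 library.

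Composition within a pair also changed. CCNE2 made up 23.0, 22.9 and 17.2% of cyclin E transcript with sunitinib, 58.4, 62.5 and 60.3% with compound 32 and 42.5, 36.0 and 39.6% with DMSO. By these values CCNE1 was the larger part in sunitinib and DMSO libraries and CCNE2 in compound 32 libraries. The values divide CCNE2 by its full exon length, of which 37.0% is shared with INTS8. These shares, and the cyclin E sums and ratios above, therefore depend on how reads in the shared bases were counted, which is not known. CCNA1 accounted for 16.5, 14.4 and 18.8% of cyclin A with sunitinib, 1.70, 2.26 and 2.44% with compound 32 and 4.63, 5.03 and 5.65% with DMSO. For cyclin B the share of CCNB1 was 75.5, 75.1 and 74.1% with sunitinib, 73.6, 71.1 and 70.6% with compound 32 and 82.9, 82.3 and 82.3% with DMSO, below every DMSO library in both treatments. Sunitinib replicate 3 did not stand apart in that share, although its CCNB1 and CCNB2 levels did. The sum of all 10 cyclins was 252.8 ± 8.89 CPM per kb with sunitinib, 328.6 ± 8.47 with compound 32 and 409.1 ± 6.22 with DMSO.

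**Figure D4:**
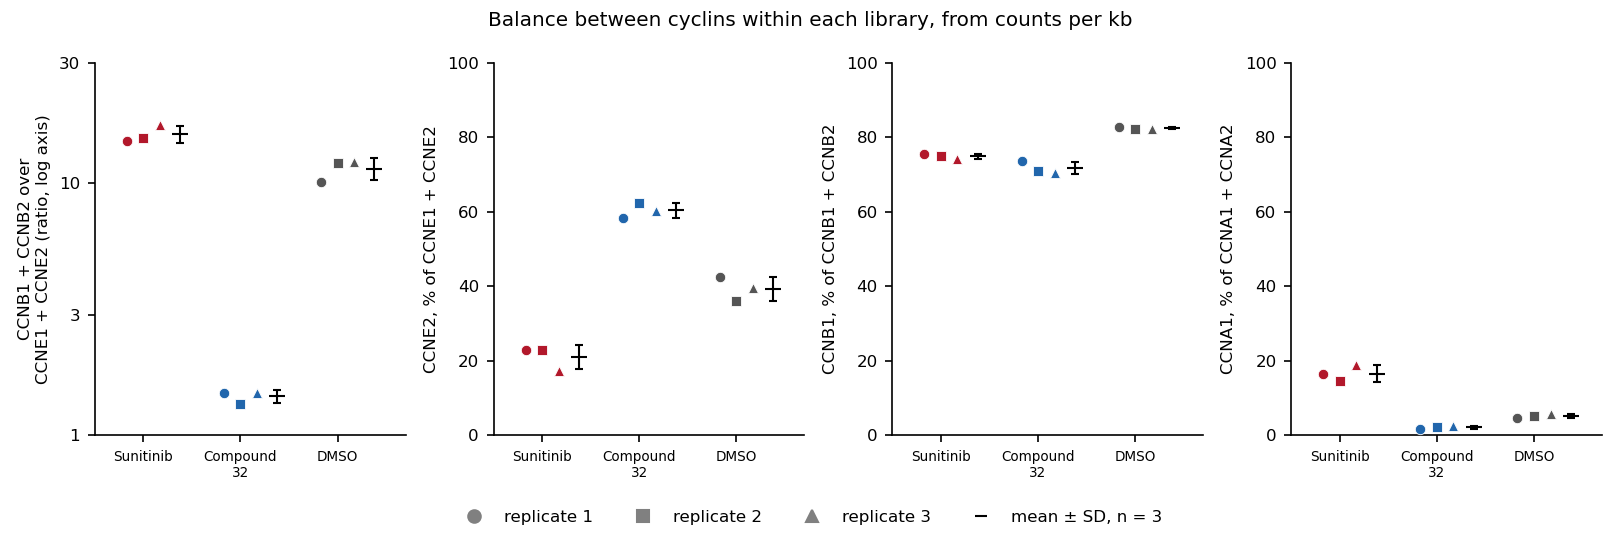
Balance between cyclins in each library from counts per kb: the ratio of cyclin B to cyclin E on a log axis, and shares within cyclin E, A and B in percent, with replicates as symbols and the mean ± SD of 3 libraries. The ratio lies between 1.33 and 1.48 with compound 32 and above 10 in all other libraries, and the CCNE2 share is above 58% with compound 32 alone.

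Each cyclin's profile over the 9 libraries was set against those of 10164 protein-coding genes with a mean of at least 5 CPM, by Pearson's r of log2 CPM, as a description only. The libraries fall into 3 treatments, so that many genes reach high values. CCNE2 was most like TPST1 (r = 0.9977) and MYBL2 (0.9973), and CCND3 like TCF19 (0.9974) and KBTBD8 (0.9973). The nearest to CCNB1 were HMMR (0.9953) and DLGAP5 (0.9935), and to CCNB2 EIF4A2 (0.9922) and CDKN3 (0.9901). For CCNA2 they were RCC1 (0.9989) and USP39 (0.995), for CCNF ING5 (0.992) and FAM83D (0.9899), and for CCNE1 ESM1 (0.9958) and PNP (0.9957). CCND1 ran closest to CPSF6 (0.9991) and CEP295 (0.9986), and CCNA1 to PRPF6 (0.9906) and GATB (0.99).

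The genes that act on or with the cyclins were described by lists, and no list was tested as a set. The shares called over all genes were 20.3% higher and 19.9% lower with sunitinib, and 12.0% and 10.3% with compound 32. The counts of every list stand beside those shares. The medians over all genes are given with the first list and hold for the others. Calls over all genes also changed when 1 library was left out, and for compound 32 those counts are given with the alternatives. Of 13 CDKs and CDK activators, 1 rose and 9 fell with sunitinib (median log2 fold change -0.41, against 0.02 over all genes) and 3 rose and 4 fell with compound 32 (median -0.11, against -0.00027 over all genes). Leaving out 1 library at a time gave 3 to 5 higher and 2 to 5 lower with compound 32, with the most called without sunitinib replicate 3. CDC25A, the phosphatase that activates CDK2, averaged 11.0 ± 1.30 CPM with sunitinib, 83.1 ± 0.65 CPM with compound 32 and 48.6 ± 0.90 CPM with DMSO (log2 fold changes -2.14 ± 0.09 and 0.77 ± 0.08; edgeR adjusted p = 2.8e-08 and 3.9e-05). CDK2, the partner of cyclins E and A, went the same ways (-1.16 ± 0.08 and 0.60 ± 0.08; edgeR adjusted p = 1.49e-06 and 0.00037). CDC25B, a phosphatase of mitotic entry, fell with compound 32 (-1.02 ± 0.09, edgeR adjusted p = 1.26e-05) and had -0.17 ± 0.09 with sunitinib (edgeR adjusted p = 0.129). Named after its values were seen, CDK1, the partner of the B cyclins, averaged 61.3 ± 14.6 CPM with sunitinib, 158.7 ± 2.77 CPM with compound 32 and 127.1 ± 8.93 CPM with DMSO. It fell with sunitinib (-1.05 ± 0.13, edgeR adjusted p = 8.82e-05) but had 0.32 ± 0.13 with compound 32 (edgeR adjusted p = 0.0975), where CCNB1 and CCNB2 were lowest.

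Of 7 CDK inhibitors, 5 were tested, with 3 higher and 1 lower with sunitinib (median 0.46) and 2 higher and 1 lower with compound 32 (median 0.47). CDKN1A (p21), which binds cyclin-CDK complexes, averaged 391.9 ± 13.7 CPM with sunitinib, 693 ± 35.2 CPM with compound 32 and 284.3 ± 6.26 CPM with DMSO. It rose in both, by 0.46 ± 0.07 and 1.28 ± 0.07 on the log2 scale (edgeR adjusted p = 0.000209 and 2.66e-07). CDKN2C (p18), an inhibitor of CDK4 and CDK6, fell with sunitinib (-1.23 ± 0.14, edgeR adjusted p = 4.41e-05) and rose with compound 32 (0.62 ± 0.13, edgeR adjusted p = 0.00507).

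The regulators of cyclin transcription formed a further pair of lists. In the list of RB and E2F proteins 1 of 13 rose and 8 fell with sunitinib (median -0.34), and 5 rose and 2 fell with compound 32 (median 0.09). With 1 library left out, 3 to 6 rose with compound 32, the fewest without DMSO replicate 2, and 2 rose with sunitinib without sunitinib replicate 3. E2F1, an activator of G1/S genes such as CCNE1 and CCNE2, averaged 16.7 ± 1.00 CPM with sunitinib, 122.3 ± 5.33 CPM with compound 32 and 64.6 ± 0.65 CPM with DMSO (-1.96 ± 0.07 and 0.92 ± 0.07; edgeR adjusted p = 1.55e-08 and 3.23e-06). Of 10 genes for MuvB, B-MYB, FOXM1 and NF-Y, 1 rose and 7 fell with sunitinib (median -0.50) and 2 rose and 2 fell with compound 32 (median 0.09). Left-out libraries moved these few calls to between 0 and 2 higher with sunitinib, and to 2 to 4 higher and 0 to 2 lower with compound 32, while 7 to 8 fell with sunitinib throughout. MYBL2, which encodes B-MYB, had 49.5 ± 2.33 CPM with sunitinib, 272.9 ± 9.32 CPM with compound 32 and 124.8 ± 3.28 CPM with DMSO, and fell with sunitinib and rose with compound 32 (-1.33 ± 0.06 and 1.13 ± 0.06; edgeR adjusted p = 8.51e-08 and 4.25e-07). FOXM1, an activator of mitotic genes such as CCNB1, fell by 0.94 ± 0.07 with sunitinib (edgeR adjusted p = 2.75e-06), and with compound 32 by 0.24 ± 0.07 (edgeR adjusted p = 0.0375), a value given after it was seen.

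Transcripts of the machinery that destroys cyclins and of the proteins that cyclin F marks were described as well. Of 30 genes of cyclin degradation, 2 rose and 13 fell with sunitinib (median -0.17) and 2 rose and 9 fell with compound 32 (median -0.17). With compound 32 the count of falls was 4 or 5 when any library of compound 32 or DMSO was left out. In those same fits the falls over all genes were 968 to 1036, against 1571 in the main fit. Over all 9 left-out libraries 1 to 3 genes of this list rose with either compound. CDC20, the activator of the anaphase-promoting complex, which destroys cyclin B, averaged 274.2 ± 13.3 CPM with sunitinib, 156.7 ± 5.74 CPM with compound 32 and 428.1 ± 18.5 CPM with DMSO. It fell in both (-0.64 ± 0.07 and -1.45 ± 0.07; edgeR adjusted p = 2.06e-05 and 1.54e-07). SKP2, the F-box protein for p27, fell with sunitinib and rose with compound 32 (-0.95 ± 0.06 and 0.39 ± 0.06; edgeR adjusted p = 6.05e-07 and 0.000828). Of 9 cyclin F substrates, 0 rose and 8 fell with sunitinib (median -0.78), and 6 rose and 1 fell with compound 32 (median 0.56). Without sunitinib replicate 3, 1 substrate rose with sunitinib. The CCNF transcript fell in both. Cyclin F marks the proteins of these genes, which were not measured here. RRM2, the small subunit of ribonucleotide reductase, averaged 37.5 ± 4.67 CPM with sunitinib, 323.7 ± 3.21 CPM with compound 32 and 150.4 ± 3.80 CPM with DMSO (-2.01 ± 0.08 and 1.11 ± 0.08; edgeR adjusted p = 3.33e-08 and 3.23e-06). CDC6, which loads the replicative helicase, had -1.34 ± 0.07 and 0.77 ± 0.07 (edgeR adjusted p = 2.03e-07 and 2.38e-05).

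Transcripts that report ERK signalling, the route by which growth factors raise CCND1, gave 7 higher and 3 lower of 13 with sunitinib (median 0.18) and 7 higher and 2 lower with compound 32 (median 0.28). These were 1 to 3 lower with sunitinib and 4 to 9 higher with compound 32 when 1 library was left out, with the fewest falls without compound 32 replicate 3 or any DMSO library and the fewest rises without compound 32 replicate 1 or DMSO replicates 2 or 3. FOSL1, an ERK-induced subunit of activator protein 1, fell in both (-0.97 ± 0.07 and -0.81 ± 0.07; edgeR adjusted p = 1.76e-06 and 1.72e-05), and DUSP5, a phosphatase that acts on ERK, rose in both (0.48 ± 0.06 and 0.95 ± 0.06; edgeR adjusted p = 0.000148 and 2.24e-06). CCND1 fell in the first of these comparisons and was not called in the second.

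**Figure D5:**
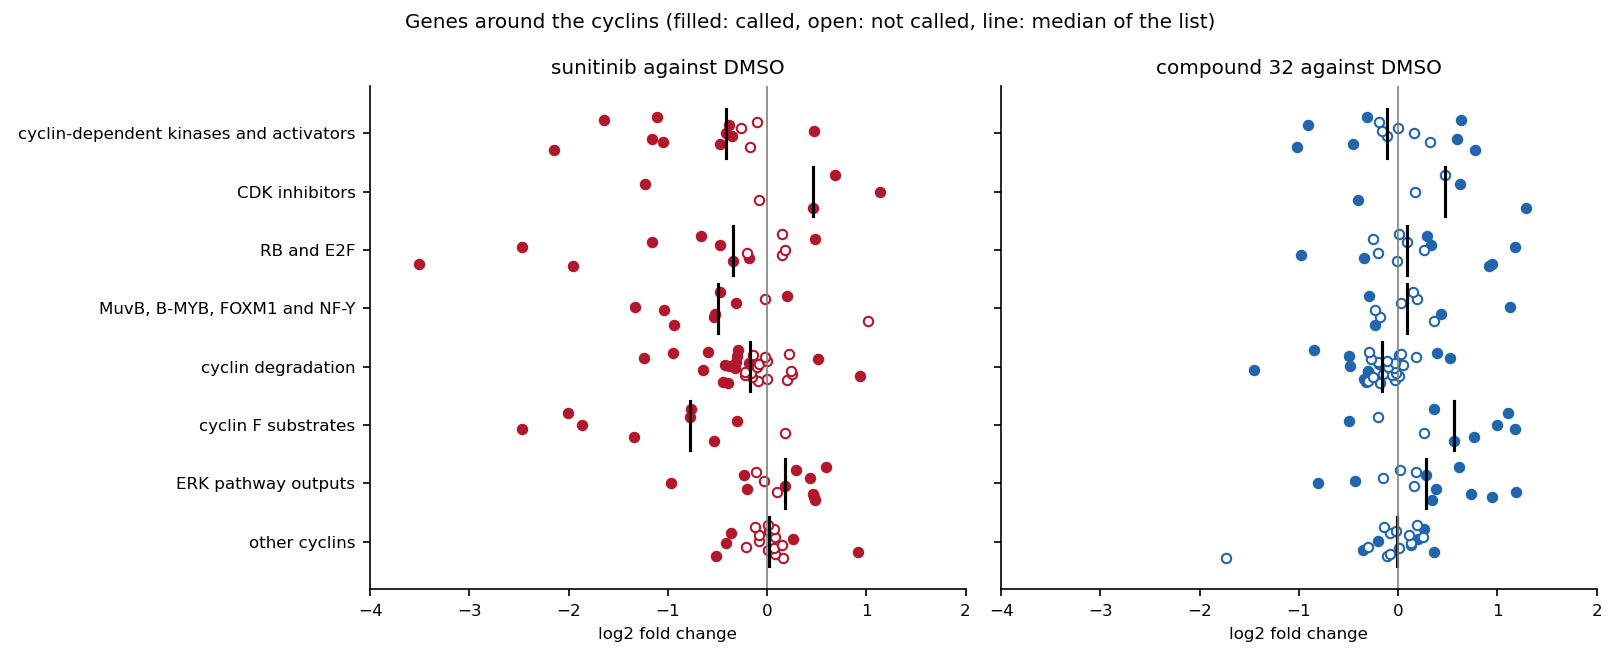
Log2 fold changes of the genes around the cyclins, 1 point per gene and 1 row per list, for sunitinib (left) and compound 32 (right) against DMSO; filled points were called by edgeR and the line is the median of the list. The cyclin F substrates have a median of -0.78 with sunitinib and 0.56 with compound 32.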

How the data were processed

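Per the labels' protocols, RNA from TRIzol was selected on oligo(dT) beads and primed with random hexamers. Raw counts per gene for 9 libraries were deposited by the authors. The submitters' processing notes list HISAT2 2.0.5 and featureCounts beside fastp, edgeR and DESeq2, and hg38 beside a mouse build. Identifiers and positions are those of GENCODE on GRCh38. The sources used here state no strand setting and no rule for reads that map to several genes.

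Genes were kept by filterByExpr with treatment as the group. Counts were scaled by TMM factors and tested in edgeR 4.0.16 (R 4.3.3) by the quasi-likelihood F test in a group-means model over all 9 libraries, on 6 residual degrees of freedom, with Benjamini-Hochberg adjustment over 15232 genes. SE is the fold change divided by the root of F. CPM values use the TMM factors, and levels per kb use exon-union lengths. The script was tested on simulated data with known fold changes. Alternatives used DESeq2 1.42.0, limma 3.58.1, other scalings, filters and thresholds, a replicate block, and left-out libraries.

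The series text speaks of biological replicates for sunitinib and DMSO but not for compound 32, whose samples may be technical replicates. The p-values of every comparison rest on a spread pooled over all libraries, those of compound 32 among them. The members and lists were chosen with earlier results of these data known. All 10 cyclins are named, and of each list members among the 3 with the smallest p of those called in a comparison, genes with exons overlapping a cyclin, and the 2 most alike genes per cyclin. Markers of the tumour type and of other cell types are named as a check of the labels. Any other gene is marked. The 5 pseudogenes and antisense genes named after these cyclins had no counts. A comparison of the proteins was not made.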

Additional observations from a re-analysis of the deposited data

How the results depend on the processing

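Of 513 alternative fold changes of the tested cyclins, 510 kept direction and call, 3 gained a call and 0 reversed. CCNB2 with sunitinib gained it without sunitinib replicate 3, where the value was -0.36 (edgeR adjusted p = 3.58e-06; range over left-out libraries -0.36 to -0.01). CCND1 with compound 32 gained it in the fit of 6 libraries (0.10, edgeR adjusted p = 0.0105) and without sunitinib replicate 3. All 114 alternative counts of called cyclins were within 1.5 times the reported ones. With the replicate block the counts were 1 higher and 7 lower with sunitinib, 3 and 5 with compound 32, and 5 and 3 between the compounds, as without it, and CCNB2 with sunitinib was -0.15. Deviations of libraries with the same number correlated at -0.0769 to 0.0609 over 9 pairs, and 1 of 9 was closest to its own number. No pairing by number was seen, but so few libraries per group cannot exclude one. Labels of sunitinib and compound 32 samples with the same number share a letter. Without a count filter CCND2 had 1.07 with sunitinib (edgeR adjusted p = 0.232), -0.59 with compound 32 (adjusted p = 0.682) and -1.66 between the compounds (adjusted p = 0.0371). Of the list counts 809 stayed within 1.5 times and 103 did not, 82 fewer and 21 more. Over all genes, calls with compound 32 were 1830 higher and 1571 lower, 3258 and 3114 in the fit of 6 libraries, 3359 and 3189 without sunitinib replicate 3, 1168 to 1221 and 968 to 1036 without a library of compound 32 or DMSO, and 977 and 738 at an adjusted p under 0.01. With sunitinib they were 3090 and 3036, and 1857 and 2091 at 0.01. Upper-quartile factors gave 3952 and 2316 with sunitinib and put the median log2 fold change of all genes at 0.105, against 0.02 as reported; library totals gave 3665 and 2428, and no cyclin call changed under any scaling. The cause of these differences was not tested. Precision at CCND2's depth is set by single counts.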

Other observations

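Of 20 cyclins outside the cell cycle set, 18 were tested, and 2 rose and 3 fell with sunitinib while 3 rose and 2 fell with compound 32. Over all genes 40.2% were called with sunitinib and 22.3% with compound 32, and the 5 of 18 called here in either comparison are not shown to differ from those shares. With compound 32 these calls were 0 to 3 higher and 0 to 4 lower when 1 library was left out, with 0 falls without any single library of compound 32 or DMSO. CCNG2, a cyclin linked to growth arrest, averaged 29.7 ± 1.00 CPM with sunitinib, 20.1 ± 1.64 CPM with compound 32 and 15.7 ± 1.22 CPM with DMSO. It rose in both, by 0.92 ± 0.09 and 0.36 ± 0.10 on the log2 scale (edgeR adjusted p = 1.87e-05 and 0.0196). CCNC, the cyclin of the Mediator kinase module, fell by 0.51 ± 0.08 with sunitinib (edgeR adjusted p = 0.000554), and CCNT1, the cyclin of P-TEFb, fell by 0.36 ± 0.08 (edgeR adjusted p = 0.00445). With compound 32 CCNC had -0.12 ± 0.08 and CCNT1 -0.08 ± 0.08, neither of them called. CCNY rose (0.26 ± 0.06, edgeR adjusted p = 0.00925) and CCNL1, a cyclin linked to RNA splicing, fell (-0.20 ± 0.06, edgeR adjusted p = 0.0295).

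Of 9 markers of the tumour type 7 were tested, and 1 rose and 1 fell with sunitinib, while 2 rose and 0 fell with compound 32. Over all genes 20.3% were called higher and 19.9% lower with sunitinib, and 12.0% and 10.3% with compound 32. KRT7, an epithelial keratin, averaged 223.9 ± 8.20 CPM with sunitinib, 66.2 ± 3.48 CPM with compound 32 and 72.2 ± 5.36 CPM with DMSO. It rose with sunitinib by 1.63 ± 0.07 (edgeR adjusted p = 5.61e-08). WT1, a transcription factor of serous tumours, fell by 1.27 ± 0.13 with sunitinib (edgeR adjusted p = 1.9e-05). KRT8 and KRT18 rose with compound 32 (0.31 ± 0.06 and 0.29 ± 0.09; edgeR adjusted p = 0.00493 and 0.032) and were not called with sunitinib. PAX8, EPCAM and KRT19 were not called in either comparison. CDH5, an endothelial cadherin, had 0.91 ± 0.14 with sunitinib and -0.85 ± 0.16 with compound 32 (edgeR adjusted p = 0.000431 and 0.00299). Of the 12 markers of other cell types 3 were tested, and PECAM1 and VWF were not called in either comparison. PECAM1 had 0.04 ± 0.36 with sunitinib and 0.56 ± 0.34 with compound 32, and VWF had 1.07 ± 0.46 and -1.23 ± 0.61.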
